A study of Macaca mulatta with 7 samples.

Results

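Chemokines and cytokines are the secreted signals by which immune cells of the nervous system call in and activate other cells. The 8 genes described here are 4 CC chemokines (CCL2, CCL3, CCL4L1 and CCL8), 2 CXC chemokines (CXCL8 and CXCL10) and the cytokines IL1B and TNF. They were found by gene symbol among the 35432 gene identifiers of the count matrices, and all 8 were present. Their RNA was measured by single-nucleus RNA-seq, which counts the RNA of single nuclei as unique molecular identifiers (UMIs), in 7 libraries of spinal cord of adult female rhesus monkeys (Macaca mulatta). Intact cord gave 1 cervical, 1 thoracic and 1 lumbar library, at an age of 5 years and by the study's account from 1 animal. The other 4 libraries came from lumbar cord of animals whose thoracic cord had been cut completely, with a piece removed. Animals aged 7 years gave the libraries of 7 and 14 days post injury (dpi), and animals aged 6 years those of 30 dpi and 6 months post injury (mpi). The tissue is therefore cord at a distance below the lesion, not the lesion itself. Each group is 1 library and by the study's account 1 animal, so time, animal, age and library cannot be told apart. A difference between libraries thus stands without replicates and without a test, and every interval given is a 95% interval for counting error alone.

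Chemokines act through G protein-coupled receptors on the cells they attract. CCL2 and CCL8 bind CCR2 and attract monocytes and T cells. CCL3 binds CCR1, and CCL3 and the CCL4 proteins attract monocytes and T cells. CXCL8 attracts neutrophils, and CXCL10, an interferon-induced gene, attracts activated T cells through CXCR3. IL1B is made as an inactive precursor that the inflammasome matures, and TNF acts through receptors on nearly every cell. In the central nervous system microglia, the resident macrophages, are a known source of these signals, most of which are switched on through the transcription factor NF-kB.

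In RefSeq's annotation of Mmul_10, the build named by the submitters, all 4 CC chemokine genes lie on chromosome 16. CCL2 (ENSMMUG00000000288) spans chr16:30638331-30639783 and CCL8 (ENSMMUG00000009784) chr16:30691225-30692607, both on the plus strand. CCL3 (ENSMMUG00000062832) spans chr16:32445799-32447174 and CCL4L1 (ENSMMUG00000020102) chr16:26406769-26408762, both on the minus strand. The CXC genes lie on chromosome 5, CXCL8 (ENSMMUG00000060156) at chr5:60071976-60073899 on the minus strand and CXCL10 (ENSMMUG00000020903) at chr5:57698478-57699998 on the plus strand. IL1B (ENSMMUG00000061716) spans chr13:16005461-16011323 and TNF (ENSMMUG00000045654) chr4:137934540-137937146, both on the minus strand.

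The 300 bases before each start codon were searched on both strands for short sequence patterns of factors known to act on these genes, because several of the genes were found in the same nuclei, as described further on. The pattern GGG, any 3 bases, TTCC, of the NF-kB type, stood in the windows of CCL2 and CXCL10 and in 5.60% of the windows of all 20711 genes. Another of this type, GGAATTTCC, is called strict for having no free base and is not a case of the first. It stood in the windows of CCL4L1, CXCL8 and CXCL10 and in 0.3235% of all. GAAA, any 2 bases, GAAA, of the interferon type, was found in CXCL10 (4.06% of all), and TGANTCA, of the AP-1 type, in CXCL8 (6.14% of all). TATAAA stood before CCL3, CCL4L1, CCL8, CXCL8 and TNF and in 13.5% of all windows. The stretches are printed along the gene's own strand, with the match in capitals, from RefSeq's Mmul_10 sequence.
CCL2, chr16:30638112-30638141, NF-kB type, read on the opposite strand: cctacttcctGGAAATCCCCaggacgctgc
CCL2, chr16:30638170-30638199, NF-kB type, read on the opposite strand: tattattcatGGAAGATCCCtcctcctgct
CCL4L1, chr16:26408633-26408661, strict NF-kB type, read on the opposite strand: tctctaccatGGAAATTCCactcgctctg
CXCL8, chr5:60074012-60074040, strict NF-kB type: tgcaaattgtGGAATTTCCtctgacataa
CXCL8, chr5:60074060-60074086, AP-1 type: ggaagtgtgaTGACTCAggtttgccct
CXCL10, chr5:57698223-57698252, NF-kB type, overlapping its strict match: gaggggcagaGGGAAATTCCatacttgtag
CXCL10, chr5:57698179-57698208, interferon type: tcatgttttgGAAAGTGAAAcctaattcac
CCL3, chr16:32447276-32447301, TATA type: cagggctgccTATAAAgagaaggaga
CCL8, chr16:30691117-30691142, TATA type: ctctgctcccTATAAAaggcatgcag
TNF, chr4:137937338-137937363, TATA type: cccagggacaTATAAAcgcagttgtt
The matches lay between 98 bases (CCL8, TATA type) and 289 bases (CXCL10, interferon type) before the start codon. No pattern was found in the window of IL1B, whose annotated model is partial. The models of CCL2, CCL3, CCL8, CXCL10, IL1B and TNF start at the start codon, so that these 6 windows may not hold the promoter. The model of CCL4L1 starts 273 bases before its start codon. Its NF-kB and TATA matches thus lie inside the annotated gene, and its window too may not hold the promoter. A match is a string of letters and not a measured binding site.

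Some of the 8 genes have near copies in the genome, which decides how far their counts can be trusted. Of the 31-base words in the CCL4L1 transcript models, 68.5% also occur in another gene, mostly in LOC100430627, whose product is named C-C motif chemokine 4. The same was true of 30.5% of those of CCL3, mostly shared with LOC100426537, and of none of the words of the other 6 genes. Reads of CCL4L1 and CCL3 may therefore have been split between copies or dropped, and their levels are uncertain.

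The libraries held between 45079131 (6 mpi) and 150987900 UMIs (intact lumbar), and 5637 to 11001 nuclei per library were kept. The median per nucleus ran from 3191 UMIs at 6 mpi to 7356 at 30 dpi. Between 1667 (intact cervical) and 4641 nuclei (14 dpi) per library fell into clusters called microglia-like from their markers. In every library these nuclei carried DOCK8 at 1085 to 1931 and PTPRC at 785 to 964 UMIs of the gene in every 1000000 UMIs of the class (CPM), against at most 47.1 and 11.1 in neuron-like nuclei. PTPRC is not particular to them, being highest in the T cell-like cluster (2710 CPM). CSF1R was 643 to 702 CPM in intact and 320 to 428 CPM in injured libraries. CX3CR1 was 424 to 553 and 140 to 314 CPM, and P2RY12 1017 to 1262 and 602 to 915 CPM. The other markers, DOCK8, PTPRC, AIF1, C1QA and C1QB, did not set all injured libraries apart in this way. The name covers microglia and macrophages, which these markers do not separate.

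All 8 genes were read mainly in microglia-like nuclei. These nuclei held 95.3% of the 12995 TNF UMIs of all kept nuclei, 94.7% of 6177 for CXCL8, 94.6% of 11120 for IL1B and 94.0% of 4236 for CCL8. For CCL3 the share was 92.1% of 29019 UMIs, for CXCL10 90.6% of 307, for CCL4L1 90.4% of 15602 and for CCL2 90.2% of 6951. Droplets also take up free RNA, so a low level in another class need not come from its cells. Each gene's level in another class was therefore written as a percentage of its level in microglia-like nuclei of the same library, and set beside the same percentage for 14 other genes of microglia. That list's median ran from 0.322% to 3.04% in astrocyte-like and from 0.508% to 1.43% in neuron-like nuclei. Of 56 pairs of a gene and a library in each class, the interval lay above the whole list in 1 pair of astrocyte-like nuclei. It did so in 0 pairs of neuron-like, oligodendrocyte-like or oligodendrocyte precursor (OPC)-like nuclei. The limit here is the highest gene of the list, not its median. A level above the median but below that gene is not counted, so 0 pairs does not show that such levels are free RNA alone.

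**Figure D1:**
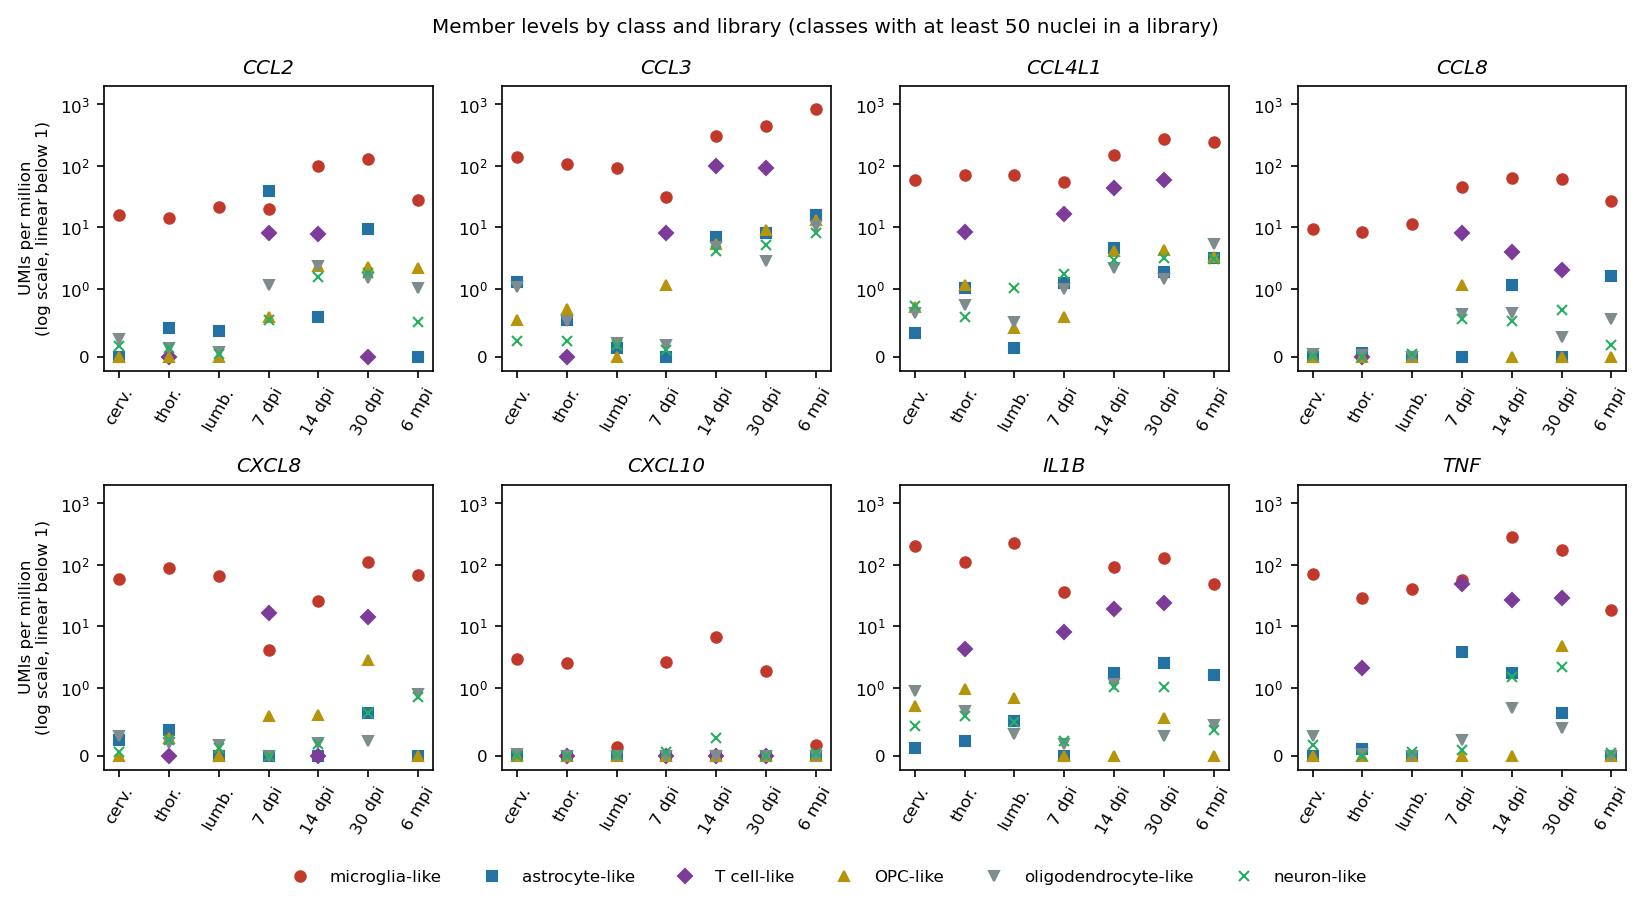
Level of each gene in CPM (y axis, log scale, linear below 1) in 6 cell classes, for the 3 intact libraries (cerv., thor., lumb.) and the 4 injured lumbar libraries. Points are single libraries, shown where the class had at least 50 nuclei. Microglia-like points lie at the top throughout, except for CCL2 at 7 dpi (astrocyte-like 39.1 CPM) and CXCL8 at 7 dpi (T cell-like, 2 UMIs in 1 of 53 nuclei).

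The exception was CCL2 at 7 dpi. Its level in astrocyte-like nuclei was 39.1 CPM (26.6 to 55.5, 31 UMIs), 195% of the microglia-like level of 20.1 CPM, where the list of 14 genes lay between 1.59% and 36.4%. The 31 UMIs lay in 8 of 98 nuclei, and 1 nucleus held 14 of them, so that the excess over microglia-like nuclei rests on few nuclei. The 8 nuclei summed to 99.3 CPM over the microglia markers, the other 90 to 105 CPM, and microglia-like nuclei to 4179 CPM. Over the astrocyte markers the 8 nuclei summed to 11534 CPM and the other 90 to 9262 CPM. The 8 nuclei thus carried microglia markers at the level of their class and astrocyte markers above it. At 30 dpi astrocyte-like nuclei held 15 CCL2 UMIs (9.43 CPM), inside the range of the list. T cell-like nuclei carried CCL3 at 101 CPM at 14 dpi and 93.5 CPM at 30 dpi, and CCL4L1 at 42.9 and 59.0 CPM, from 101 and 88 nuclei. CCL3 lay in 11 and 9 of these nuclei and CCL4L1 in 9 and 8, and at 30 dpi 1 nucleus held 17 of the 46 CCL3 UMIs and 2 nuclei at least 50% of the UMIs of each gene. These levels were below those of microglia-like nuclei in the same libraries, and the part of free RNA in them was not tested. TNF in T cell-like nuclei at 7 dpi was 48.6 CPM (17.8 to 106), from 6 UMIs in 4 of 53 nuclei. Its level in microglia-like nuclei there was 56.3 CPM (52.6 to 60.1), so the intervals overlap. At 14 and 30 dpi TNF was 27.3 and 28.5 CPM in T cell-like nuclei, and the part of free RNA was not tested here either. CXCL8 in T cell-like nuclei at 7 dpi rested on 2 UMIs in 1 of 53 nuclei and was not compared.

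The comparisons below ask how far the signals of the spared lumbar cord lie from those of intact cord, in microglia-like nuclei. A gene is called higher or lower where its ratio to intact lumbar cord, as log2 of CPM + 1, is at least 2-fold and its level lies outside the range of the 3 intact libraries. That range covers segments of 1 animal, and all 4 comparisons share the intact lumbar library.

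Among the CC chemokines, CCL2, the monocyte attractant, stood at 16.1, 14.2 and 21.5 CPM in cervical, thoracic and lumbar intact cord. In the injured libraries, in time order, it was 20.1, 100.5, 128.1 and 27.9 CPM. The 14 and 30 dpi libraries stood far above the others, with log2 ratios of 2.18 and 2.52, while 7 dpi lay inside the intact range and 6 mpi just above it. CCL8, which shares the receptor CCR2, was 9.56, 8.51 and 11.2 CPM in the intact segments. It was 44.9, 63.2, 60.8 and 26.8 CPM at 7, 14, 30 dpi and 6 mpi, higher in all 4 injured libraries (log2 ratios 1.91, 2.40, 2.34 and 1.19). It was called higher at every time point under all 14 alternatives as well. CCL2 and CCL4L1 joined it in this only when 1 intact cluster, led by NR4A3 and described further on, was left out.

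CCL3, a ligand of CCR1, was 139.1, 108.9 and 92.3 CPM in the intact segments. It was 31.4, 311.6, 453.0 and 854.2 CPM in the injured libraries in time order. The 7 dpi library thus lay below all intact segments (log2 ratio -1.53) and the later libraries above them (1.74, 2.28 and 3.20). Without the intact cluster led by NR4A3 the 7 dpi ratio turned to 1.5 and was not called. CCL4L1 was 57.9, 72.0 and 72.3 CPM in the intact segments and 54.6, 149.2, 269.8 and 244.6 CPM after injury. It was called higher at 14 dpi (log2 ratio 1.03, at the 2-fold limit), 30 dpi (1.89) and 6 mpi (1.74), and at 7 dpi it lay just below the intact range (-0.40).

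Among the CXC chemokines, CXCL8, the neutrophil attractant, was 59.3, 90.7 and 66.0 CPM in the intact segments. It was 4.12 CPM at 7 dpi (3.18 to 5.26, 65 UMIs) and then 26.1, 113.4 and 68.3 CPM. It was called lower at 7 and 14 dpi (log2 ratios -3.71 and -1.31), of which the 14 dpi ratio turned to 0.81, not called, without the intact cluster led by NR4A3. At 7 dpi only 0.174% of the genes tested had a lower ratio. At 30 dpi it lay above the intact range but short of 2-fold (0.77), and at 6 mpi inside it (0.05). CXCL10 was scarce everywhere, with 278 UMIs in microglia-like nuclei of all libraries. It was 2.91 and 2.48 CPM in cervical and thoracic cord and 0.135 CPM (1 UMI) in intact lumbar cord. After injury it was 2.66, 6.61 and 1.85 CPM at 7, 14 and 30 dpi and 0.160 CPM (1 UMI) at 6 mpi. Only the 14 dpi level (5.55 to 7.81) lay above the intact range. Because the reference is 1 UMI, its log2 ratio there was 5.61 without the added 1, with an interval of 3.11 to 10.9, and 2.75 with it.

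The cytokine IL1B was 203.7, 111.9 and 226.4 CPM in the intact segments, so that it differed 2-fold between the thoracic and the lumbar segment. It was 36.8, 92.5, 129.8 and 49.2 CPM at 7, 14, 30 dpi and 6 mpi. It was called lower at 7 dpi (log2 ratio -2.59), 14 dpi (-1.28) and 6 mpi (-2.18), and at 30 dpi lay inside the intact range (-0.80). Against all microglia-like nuclei of intact lumbar cord, IL1B and CXCL8 were called higher in no injured library, which for CXCL8 changed at 30 dpi and 6 mpi with 1 intact cluster left out, as described further on. TNF was 72.2, 28.5 and 40.2 CPM in the intact segments and 56.3, 280.7, 172.8 and 18.4 CPM after injury. It was called higher at 14 and 30 dpi (log2 ratios 2.77 and 2.08), lower at 6 mpi (-1.08), and lay inside the intact range at 7 dpi (0.47). The call at 6 mpi was lost under 4 of 14 alternatives, and without the intact cluster led by NR4A3 the ratio turned to 1.80.

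**Figure D2:**
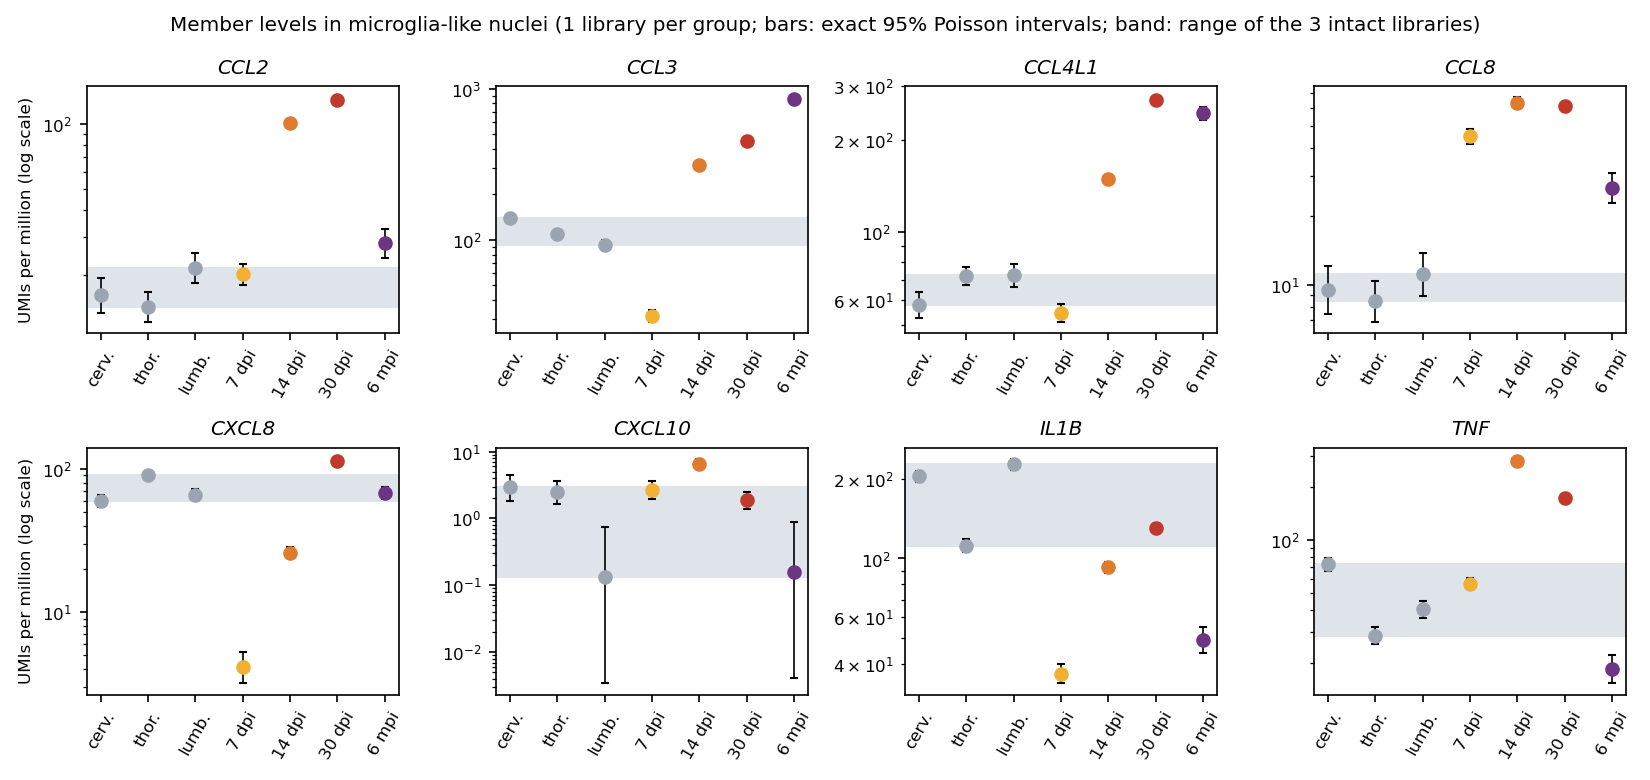
Level of each gene in microglia-like nuclei (y axis, CPM, log scale) in the 7 libraries, 1 per group. Bars are exact 95% Poisson intervals and the band is the range of the 3 intact libraries. CCL8 lies above the band in all 4 injured libraries, CCL3 below it at 7 dpi and above it later, and IL1B below it at 7 dpi, 14 dpi and 6 mpi.

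By count, at 7 dpi 1 of the 8 genes was called higher (CCL8) and 3 lower (CCL3, CXCL8 and IL1B), where 7.3% and 4.95% of the 10348 genes tested were. At 14 dpi 6 were higher and 2 lower (CXCL8 and IL1B), against 5.18% and 3.74% of all. At 30 dpi 5 were higher and 0 lower, against 7.33% and 5.39%, and CXCL8, CXCL10 and IL1B were neither. At 6 mpi 3 were higher (CCL3, CCL4L1 and CCL8) and 2 lower (IL1B and TNF), against 10.9% and 4.38%. Tested were the genes with a mean of at least 5 CPM, which CXCL10 alone of the 8 did not reach. The 8 genes were chosen with earlier results of these data known, so these counts are a description. The median log2 ratio of the 8 genes was -0.24, 1.96, 1.98 and 0.21 in time order, and that of all genes tested 0.04, -0.08, -0.05 and 0.18. Between intact segments, on the 2-fold limit alone, 1 of the 8 (CXCL10) was higher in cervical than in lumbar cord, where 1.35% of genes were higher and 0.319% lower. In thoracic cord CXCL10 was higher and IL1B lower, against 0.647% and 0.86%.

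**Figure D3:**
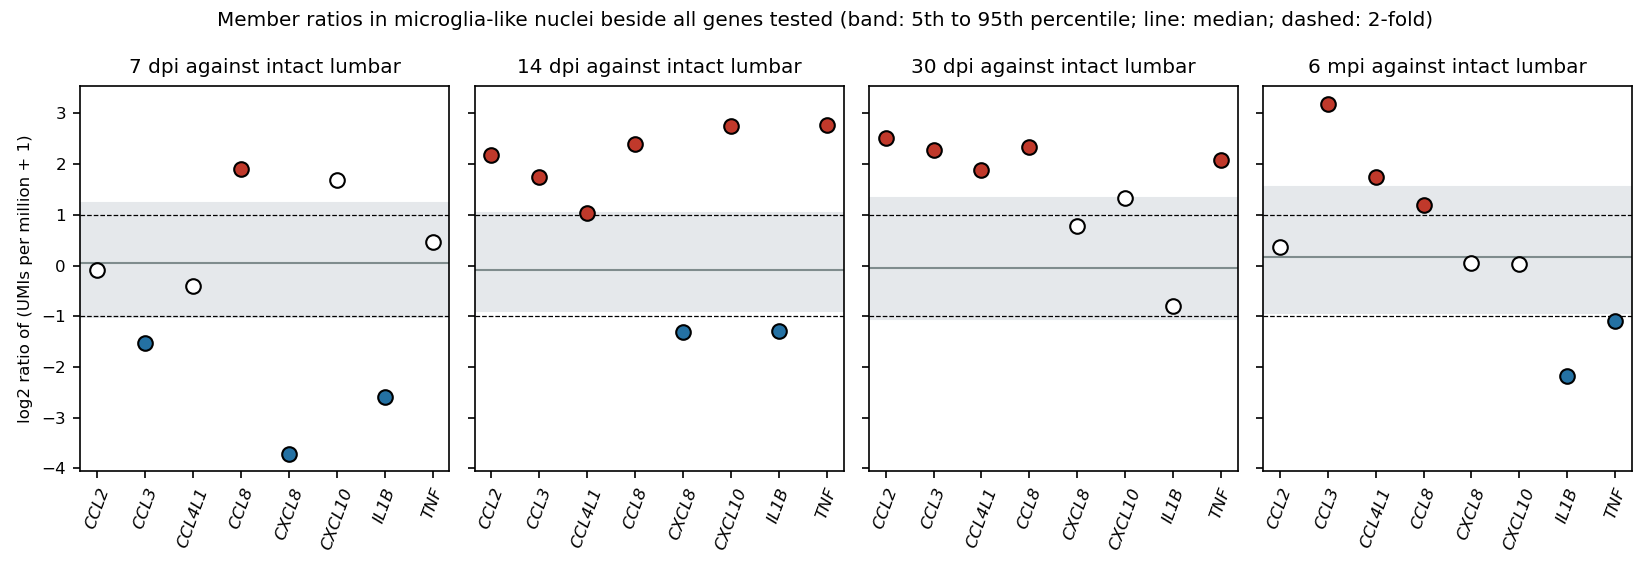
Log2 ratio of each gene to intact lumbar cord in microglia-like nuclei (y axis, log2 of CPM + 1) at 4 time points. Red points were called higher, blue lower and white neither, the grey band spans the 5th to 95th percentile of all genes tested, the line is their median and the dashed lines mark 2-fold. CXCL8 at 7 dpi (-3.71) and CCL3 at 6 mpi (3.20) lie farthest from 0.

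For most of the 8 genes the level in intact lumbar cord rested on a small cluster. Clusters were made without the 8 genes and without other chemokines and cytokines among the variable genes. One microglia-like cluster of 562 nuclei, led by NR4A3, CD163 and NR4A2, held 80 cervical, 164 thoracic and 311 lumbar nuclei of intact cord, which are 4.80%, 6.41% and 14.8% of the microglia-like nuclei there. Of the injured libraries it held 0 nuclei at 7 dpi and 1, 2 and 4 later. Its extent depends on the clustering. At resolution 2 the cluster with NR4A3 among its leading genes held 1202 nuclei, with 309 from cervical, 405 from thoracic and 478 from lumbar intact cord. The shares and calls given here are for resolution 1 and its cluster of 562 nuclei. NR4A genes are immediate early genes, transiently induced by many stimuli. In intact lumbar cord this cluster held 94.6% of the CCL4L1 UMIs, 91.8% of CCL2, 90.4% of CCL3, 90.3% of TNF, 81.4% of CXCL8, 80.7% of CCL8 and 43.4% of IL1B. Of the CCL3 UMIs it held 29.9% in cervical and 42.9% in thoracic cord. In the remaining, larger intact cluster of lumbar cord, led by MRC1 and FKBP5, CCL3 was 8.98 CPM, TNF 3.10 CPM and IL1B 150 CPM. In the cervical and thoracic nuclei of that larger cluster CCL3 was 101 and 60.3 CPM, TNF 58.0 and 14.6 CPM and IL1B 169 and 92.1 CPM. CCL4L1 was 4.24 CPM in its lumbar nuclei, against 30.4 and 29.3 CPM. CXCL8 was 13.7 CPM, against 44.3 and 46.9 CPM, and CCL2 1.80 CPM, against 9.32 and 5.32 CPM.

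Several calls turned on these nuclei. With that cluster left out, an alternative chosen after seeing the data, CCL3 at 7 dpi went from -1.53 to 1.5 in log2 ratio, CXCL8 at 14 dpi from -1.31 to 0.81 and TNF at 6 mpi from -1.08 to 1.80. CCL2 and CCL4L1 at 7 dpi, not called before, went from -0.09 to 2.78 and from -0.40 to 3.31 and were called higher. All these ratios are to the lumbar nuclei that remain. In the larger cluster these carried CCL2, CCL3, CCL4L1, CXCL8 and TNF below the cervical and thoracic nuclei, as given above. The size of such a ratio thus holds for the lumbar reference only. CXCL8 at 30 dpi (from 0.77 to 2.89) and 6 mpi (0.05 to 2.17) and CCL2 at 6 mpi (0.36 to 3.21) were then also called higher, and IL1B at 14 dpi lost its call (-0.70). The genes called higher then numbered 3, 6, 6 and 5 in time order, where 7.17%, 5.47%, 7.49% and 11.2% of the 10357 genes tested were. Those called lower numbered 2, 0, 0 and 1, against 4.8%, 4.1%, 5.74% and 4.48% of all. The calls of CCL8 at all times, of CCL2, CCL3, CCL4L1 and TNF at 14 and 30 dpi, of CCL3 and CCL4L1 at 6 mpi, of CXCL8 at 7 dpi, of CXCL10 at 14 dpi and of IL1B at 7 dpi and 6 mpi stood with and without it. The cluster is almost wholly from intact cord and, CXCL10 apart, carried the genes above their class level in intact lumbar cord. Leaving it out thus lowers their reference, so their higher calls could not be lost and their standing is no support. Only a lower call could be lost in this way. Other settings also ended calls. CCL4L1 at 14 dpi was not called when each nucleus was named alone (or weighted equally), IL1B at 14 dpi also when the mean of the intact libraries was the reference, CXCL10 at 14 dpi when the top 1% of nuclei was left out, and TNF at 6 mpi also in nuclei with over 2000 UMIs, with each nucleus named alone and with naming by all markers. Naming by all markers also gave CCL2 (log2 ratio 1.37) and CXCL8 (-2.15) at 6 mpi a call, so that CXCL8 at 6 mpi was called lower there and higher without the cluster led by NR4A3. CXCL8 at 30 dpi was also called higher at 1.5-fold and with the top 1% of nuclei left out (1.07). Naming clusters by all markers took the log2 ratio of CCL3 at 6 mpi from 3.20 to 1.45. In that setting a cluster with 1167 of the 2313 microglia-like nuclei of 6 mpi, holding 83.5% of the CCL3 UMIs there, was unnamed and left the class. So was a cluster with 2615 of the 3513 microglia-like nuclei of 7 dpi.

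Immediate early genes also differed between the libraries. Summed over 12 such genes, microglia-like nuclei carried 354, 668 and 713 CPM in the intact segments, 222 CPM at 7 dpi and 1933, 1559 and 1744 CPM at 14, 30 dpi and 6 mpi. At 7 dpi 8 of the 12 were lower and 0 higher. At 14 dpi 6 were higher, at 30 dpi 8 and at 6 mpi 6, with 0 lower each time. Of all genes tested, 7.3%, 5.18%, 7.33% and 10.9% were called higher and 4.95%, 3.74%, 5.39% and 4.38% lower in time order. FOS, for example, was 58.2 CPM at 7 dpi and 613 CPM at 14 dpi, against 46.7 to 161 CPM in the intact segments. Their part in the levels of the chemokines and cytokines was not tested.

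In every injured library before the last time point, each of the 8 genes had its largest share of UMIs in the library's largest microglia-like cluster. At the last time point the largest shares were spread over several clusters. Levels differed between the clusters of a library. At 30 dpi a cluster with 2239 of the 3869 microglia-like nuclei (57.9%), with PMAIP1 and CD83 among its leading genes, carried CCL2 at 195 CPM, TNF at 288 CPM and CCL4L1 at 406 CPM. It held 79.2% of the CCL2 and 86.7% of the TNF UMIs of the class. A second cluster of 1291 nuclei, led by ITGAX and GPNMB, genes of lipid-handling macrophages, carried CCL2 at 24.2 CPM, TNF at 37.5 CPM and CCL8 at 7.72 CPM. In it CXCL8, at 134 CPM, was above the 108 CPM of the first cluster, and CCL3 was 317 CPM against 591 CPM.

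At 6 mpi a cluster led by GPNMB, CHIT1 and CDH1 held 1167 of the microglia-like nuclei (50.5%). It carried CCL3 at 1373 CPM and 83.5% of the CCL3 UMIs, CXCL8 at 109 CPM with 82.6%, and CCL4L1 at 308 CPM. TNF was 9.88 CPM there, CCL8 1.54 CPM and IL1B 24.4 CPM. The microglia-like nuclei of 14 dpi lay mostly in a cluster with 4050 of them, led by SRGN, FOS and TNF, with TNF at 315 CPM and CCL3 at 301 CPM. Those of 7 dpi lay mostly in a cluster with 2615 of them, led by CD74, with CCL8 at 51.8 CPM and CXCL8 at 2.54 CPM. Most of these clusters come from 1 library, so a cluster and its library cannot be told apart.

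**Figure D4:**
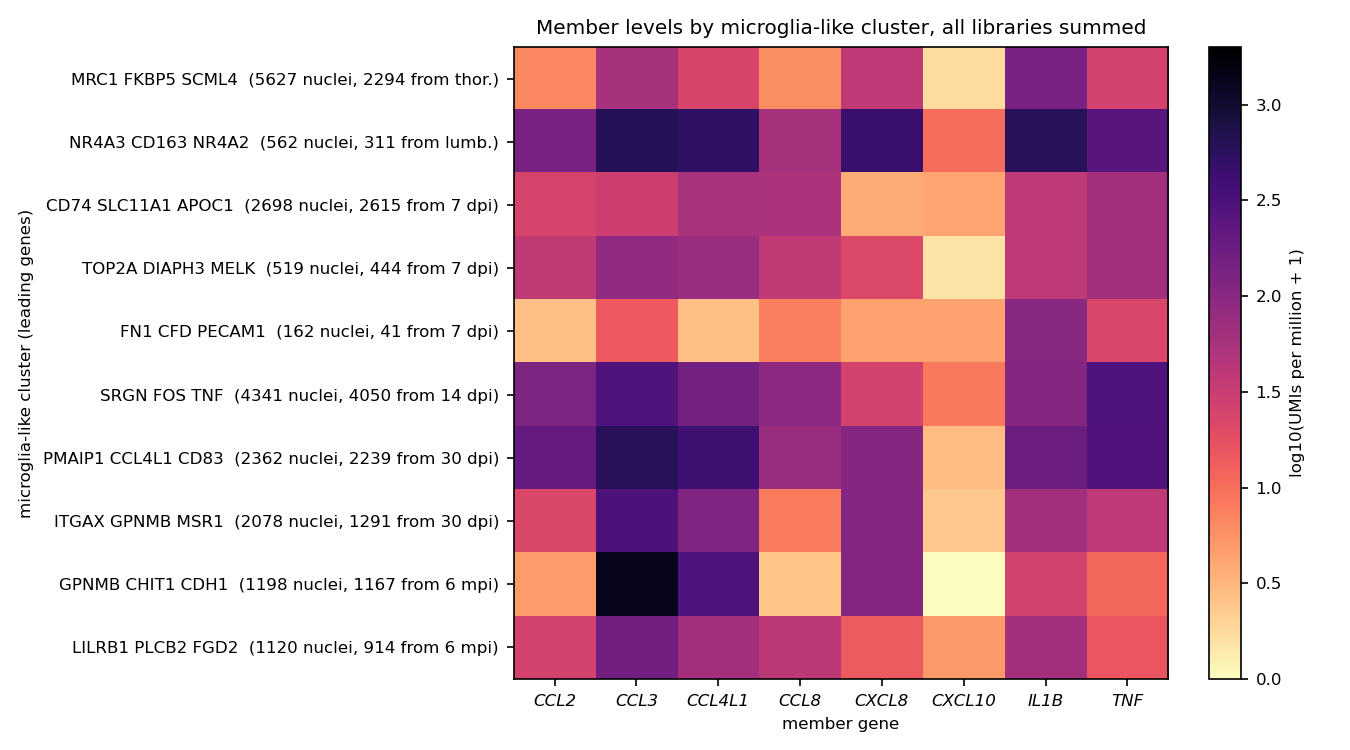
Level of the 8 genes (columns) in the microglia-like clusters (rows, named by leading genes, with nuclei in all and from the main library), as log10 of CPM + 1. In the cluster led by NR4A3 the darkest cells are CCL3, CCL4L1, CXCL8 and IL1B. The cluster led by GPNMB and CHIT1 is darkest for CCL3 and pale for CCL2 and CCL8.

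The share of nuclei with a UMI depends on depth, so every nucleus was thinned to 1000 UMIs, and a share is not the share of nuclei that carried the RNA. CCL3 was found in 8.82%, 6.61% and 5.75% of microglia-like nuclei of the cervical, thoracic and lumbar intact segments, and in 1.91%, 20.9%, 29.4% and 36.0% of those of the injured libraries in time order. TNF was found in 4.80%, 2.19% and 2.85% in intact cord and 4.30%, 18.6%, 12.6% and 1.30% after injury. IL1B was found in 11.6%, 7.70% and 13.6% and then 2.90%, 6.53%, 8.53% and 3.42%. Unthinned, CCL3 stood in 54.5% of nuclei at 30 dpi and 47.4% at 6 mpi, at median depths of 5809 and 2395 UMIs. Thinned shares followed the order of the levels in these 3 genes.

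CCL2 was found in 1.02% to 1.80% of nuclei of the intact segments and in 1.34%, 7.52%, 10.2% and 1.43% after injury. CCL4L1 was found in 3.84% to 5.63% and then 3.90%, 10.7%, 19.7% and 12.1%. CCL8 was found in 0.704% to 0.807% and then 3.59%, 4.29%, 4.37% and 1.99%. CXCL8 was found in 3.60% to 5.32% and then 0.455%, 2.50%, 8.06% and 4.45%. CXCL10 was found in at most 0.517% of nuclei, at 14 dpi, so its levels rest on few nuclei. In neuron-like and oligodendrocyte-like nuclei, thinned alike, the highest share of any of the 8 genes was 0.879%, for CCL3. For CXCL8 it was at most 0.127% and for CXCL10 at most 0.0834%. Whether these shares come from free RNA or from the RNA of such nuclei was not tested. CXCL10 stood in 0 of 2106 thinned microglia-like nuclei of intact lumbar cord and 0 of 2313 at 6 mpi, and a limit of 3 counts allows shares of nuclei with a UMI at that depth of up to 0.142% and 0.130%. Unthinned, CCL3 stood in 13.7% of neuron-like nuclei at 6 mpi, whose median depth was 21618 UMIs.

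**Figure D5:**
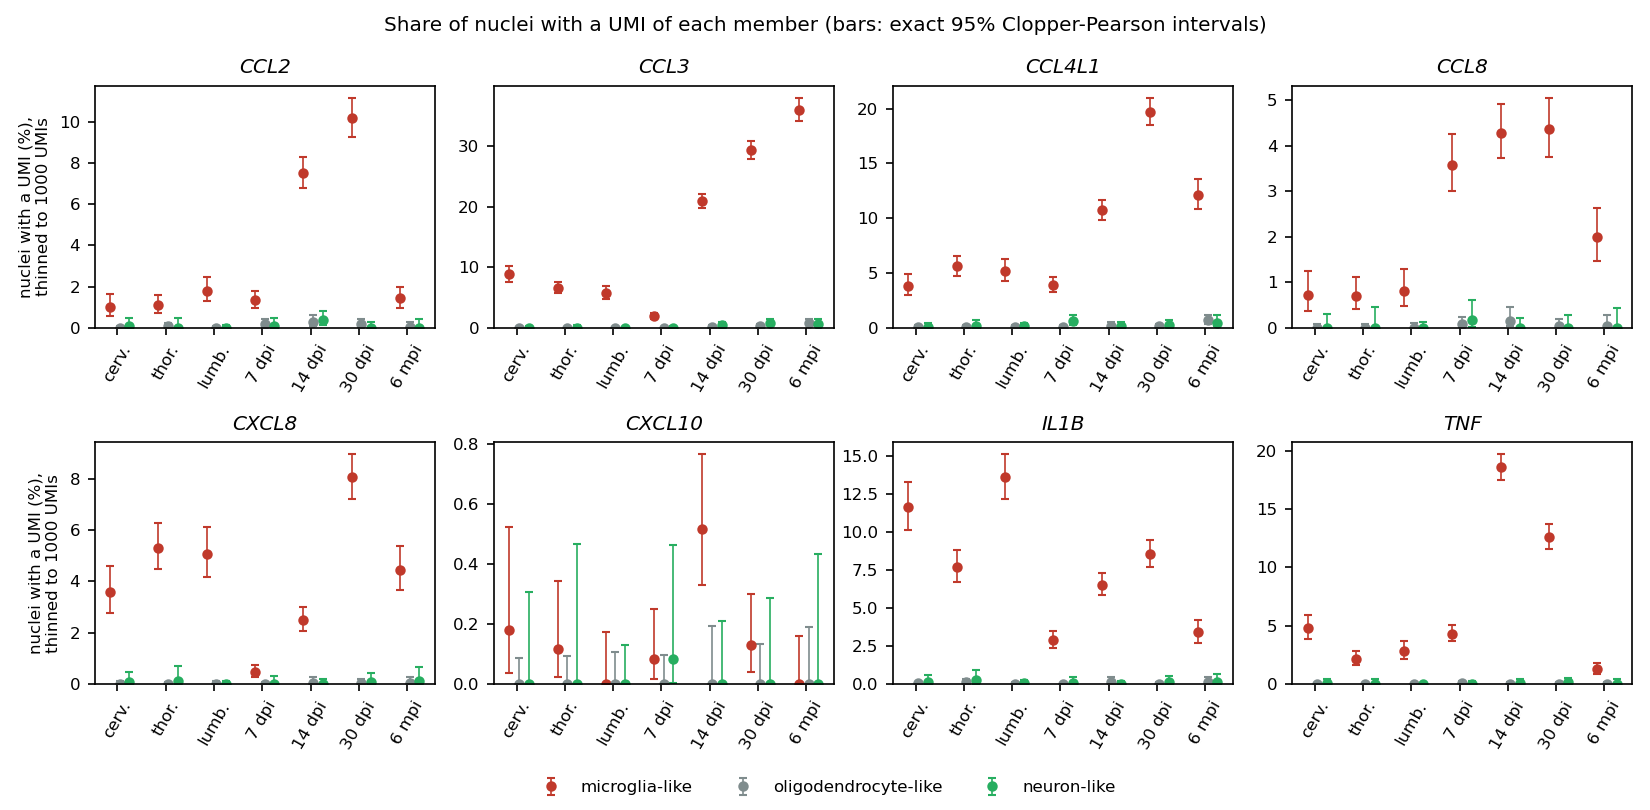
Share of nuclei with at least 1 UMI (y axis, %) of each gene after thinning every nucleus to 1000 UMIs, in microglia-, oligodendrocyte- and neuron-like nuclei of the 7 libraries. Bars are exact 95% Clopper-Pearson intervals. CCL3 reaches 36.0% at 6 mpi and TNF 18.6% at 14 dpi, while the other classes stay at or below 0.879%.

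Together, at least 1 of the 8 genes was found in 24.6%, 20.6% and 22.6% of microglia-like nuclei of the intact segments, in 14.3% at 7 dpi and in 46.0%, 52.7% and 44.5% at 14, 30 dpi and 6 mpi. At least 3 of them were found in 1.68% to 3.04% of intact nuclei, 0.882% at 7 dpi, 5.75% and 10.3% at 14 and 30 dpi and 2.81% at 6 mpi. Counted over all UMIs, without thinning, 50% of a gene's UMIs lay in few nuclei. Such a share of nuclei depends on the number of UMIs and on depth, which both differ between libraries. Microglia-like nuclei held 495 CCL3 UMIs in the 7 dpi library, for example, against 11478 in the 30 dpi library. Differences between libraries in the shares that follow are thus not read as changes in concentration. In intact lumbar cord 2.33% of microglia-like nuclei held 50% of the CCL3 UMIs, at 7 dpi 1.42%, and at 14, 30 dpi and 6 mpi 9.03%, 12.1% and 11.1%. For TNF these were 1.61% of nuclei in intact lumbar cord and 7.74% at 14 dpi, where 1 nucleus held 34 UMIs. For IL1B they were 4.70% in intact lumbar cord and 1.25% at 6 mpi.

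Several of the genes were found in the same nuclei. CCL4L1 was found 2.69 to 14.2 times as often in nuclei with CCL3 as in those without, over 7 libraries. CCL8 was found 4.37 and 6.67 times as often in nuclei with CCL2 in the 30 and 14 dpi libraries. At 14 dpi it was in 20.1% of the 349 nuclei with CCL2 against 3.01% of the rest. IL1B was found 0.775 to 4.38 times as often in nuclei with CCL3 as in those without, and CCL8 0.700 to 11.5 times. Thinning fixes depth, but clusters within the class were not separated here. At 6 mpi GPNMB was in 75.8% of the nuclei with CCL3 and in 32.6% of those without. At 30 dpi it was in 14.0% of the nuclei with CCL3 and 22.2% of the rest, in 5.13% of those with TNF and 21.9% of the rest, and in 2.79% of those with CCL2 and 21.7% of the rest.

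The genes most like each of the 8 were ranked in 2 ways. By detection in the same nuclei, as the geometric mean over libraries with at least 50 positive nuclei of the ratio of the shares with and without the gene, 0.1 percentage points added to each share, CCL2 was nearest to CCL8 (5.26), HAMP (3.30) and PLCB3 (2.88), over 2 libraries. CCL3 was nearest to CCL4L1 (5.86), CXCL8 (5.19) and NR4A1 (4.60), over 7. CCL4L1 was nearest to CCL2 (7.34), CCL5 (5.98) and NR4A3 (5.77), over 7. CCL8 was nearest to CCL2 (5.33), HAMP (3.89) and PTGS2 (3.29), over 3. CXCL8 was nearest to NR4A3 (4.41), PTGS2 (4.19) and ATF3 (3.68), over 6. IL1B was nearest to CCL5 (2.93), PTGS2 (2.74) and CCL8 (2.56), over 7, and TNF to CCL2 (4.67), EGR2 (4.28) and CCL4L1 (4.27), over 6. PTGS2 makes prostaglandins, and ATF3, EGR2 and the NR4A genes are immediate early genes. CXCL10 had too few positive nuclei. By level over the 7 libraries, among 6346 genes, the nearest were PLEK for CCL2, WDR7 for CCL3, SP140 for CCL4L1, TMEM114 for CCL8, KIAA0232 for CXCL8, HNRNPC for IL1B and SIK3 for TNF, and among 6347 genes PPP2R5E for CXCL10. Their Pearson correlations with the gene ran from 0.97 to 0.99, over 7 points that share libraries, as a description.

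The wider families were read from lists chosen with earlier results of these data known, so their counts are a description. They stand beside 7.3%, 5.18%, 7.33% and 10.9% of all genes tested that were called higher and 4.95%, 3.74%, 5.39% and 4.38% called lower in time order. Of 21 other chemokines found, 2 reached a mean of 5 CPM in microglia-like nuclei. CCL5, an attractant of T cells, was 2.77 to 6.65 CPM in the intact segments, 4.63 CPM at 7 dpi and 18.2, 28.1 and 11.1 CPM later, higher at the last 3 times, and CXCL16 was neither at any. Of 20 other cytokines 9 reached that level, with 1, 3, 3 and 2 higher and 3, 2, 3 and 2 lower in time order. IL33, an alarmin of the IL1 family, was 3.24 to 5.94 CPM in the intact segments and 45.0, 32.2, 64.3 and 37.9 CPM after injury, higher at all times. Over all libraries it was 235 CPM in astrocyte-like, 35.9 CPM in microglia-like and 1.04 CPM in neuron-like nuclei, and the part of free RNA in the microglia-like values was not tested. IL18, another family member, was 346 to 414 CPM and then 194, 207, 178 and 151 CPM, called lower at 7 and 30 dpi and 6 mpi. CSF1, the growth factor of microglia, was higher at 14 and 30 dpi and 6 mpi, at 14.5, 24.9 and 18.6 CPM against at most 2.43 CPM.

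Among receptors and inhibitors, 8 of 22 reached 5 CPM, with 0, 1, 0 and 1 higher and 2, 1, 2 and 2 lower, against 5.18% to 10.9% and 3.74% to 5.39% of all genes tested over the 4 times. CCR1, the receptor of CCL3, was called neither in any library (42.2 to 81.6 CPM). CXCR4 was 14.5 to 19.5 CPM in the intact segments, 6.79 CPM at 7 dpi and 169 CPM at 6 mpi. IL1RN, the inhibitor of IL1 signalling, was lower at 7 dpi (1.65 CPM) and higher at 14 dpi (12.3 CPM) against 3.74 to 5.13 CPM. CCR2, the receptor of CCL2 and CCL8, was 1.56 CPM in microglia-like nuclei of all libraries and 35.8 CPM in T cell-like nuclei. Of 13 genes that sense signals or process IL1B, 1 was higher at each time, a share near that of all genes tested, and 1 (IRAK3) was lower at 6 mpi. TLR2 was 223 and 185 CPM at 14 and 30 dpi against 50.9 to 77.2 CPM in intact cord.

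Of 9 targets and inhibitors of NF-kB, 3, 2, 4 and 4 were higher in time order and 2, 0, 0 and 0 lower, where 5.18% to 10.9% of all genes tested were higher and 3.74% to 5.39% lower. ICAM1, an adhesion molecule, was 2.93 to 4.45 CPM in intact cord and 15.9, 24.4, 21.8 and 22.8 CPM after injury. PTGS2, 1 of the 2 that were lower at 7 dpi, was 0.951 CPM there against 26.0 to 42.3 CPM. Of 8 interferon-induced genes, 6, 6, 5 and 5 were higher and 0 lower, against the same shares of all genes. MX1 was 38.6 to 47.2 CPM in intact cord and 198, 116, 149 and 114 CPM after injury, while CXCL10, also interferon-induced, was higher only at 14 dpi.

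Markers of other immune cells in the microglia-like nuclei were summed as well. Of 8 neutrophil markers 4 to 8 had a UMI per library, summing to 24.3 to 38.2 CPM in intact and 20.6 to 28.1 CPM in injured libraries. Of 7 monocyte markers 5 to 7 had a UMI, summing to 55.4 to 75.8 CPM in intact libraries, above that range at 7 dpi (129 CPM) and 30 dpi (96.7 CPM) and below it at 14 dpi (30.8 CPM) and 6 mpi (27.8 CPM). LYZ and VCAN were higher at 7 and 30 dpi, and CD14 was lower at 7 dpi, 14 dpi and 6 mpi. VCAN alone made up 80.7 CPM of the sum at 7 dpi and 35.0 CPM at 30 dpi. It is not particular to monocytes, being also the first leading gene of the main OPC-like cluster. All 6 markers of perivascular macrophages were found, at 1001 to 1678 CPM in intact and 241 to 662 CPM in injured libraries. CD163 and MRC1 were lower at all 4 times and STAB1 at 30 dpi and 6 mpi, while F13A1 was higher at 7, 14 and 30 dpi and SIGLEC1 at all 4. Of 6 B cell markers 5 or 6 were found, at 56.0 to 109 CPM and 23.3 to 151 CPM. BANK1 alone made up 148 CPM of the highest of these sums, at 14 dpi. The part of such cells in the levels above was not tested.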

How the data were processed

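Nuclei of 7 spinal cord libraries were counted by the authors with Cell Ranger 6.0.0 against Mmul_10, per the submitters' processing notes. The annotation release is not given in the sources used here, and the labels and the study's methods name different sequencers. The deposited values are raw UMI counts per gene and nucleus, not normalized, and 959 identifiers were named from a gene table. The 8 genes and the gene lists were chosen with earlier results of these data known.

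The filter stated by the study was applied to genes (over 500), UMIs (over 1000), mitochondrial (under 10%) and haemoglobin reads (under 5%), which left out 2248 of 69332 barcodes. The 5% with the highest Scrublet doublet scores per library (3358 nuclei) were removed, where the study used DoubletFinder. Pairs of libraries shared 12 to 36 barcodes, 0.168% to 0.379% of the smaller one. Nuclei were clustered jointly on 2000 variable genes without chemokines and cytokines (Scanpy 1.11.5, 30 components, leidenalg 0.10.2, resolution 1), and clusters were named from marker lists. After the first clustering, markers highest in another class's cluster (SLC1A3, PTPRC, PECAM1 and VWF) were left out of the naming, a rule chosen after seeing the data. Naming by all markers, and leaving out the clusters led by NR4A3 or FN1, were alternatives also added then. MAG, OLIG1, CCL4, CXCL2, NFKBIZ and HSPA1A were not found by symbol and were not analysed here.

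Levels are a gene's UMIs in a class and library over all UMIs there (CPM), and exact intervals are Poisson for levels and conditional binomial for ratios. Shares carry exact Clopper-Pearson intervals. With 1 library per group no test was made. All 8 genes are named, with the 3 most like each by detection in the same nuclei (none for CXCL10). By level (mean of at least 20 CPM) the nearest of 3 ranked is named. The computation recovered most of the large changes put into simulated counts with counting noise alone, which does not test calls near the 2-fold limit. The values of 1 listed gene are not reported here.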

Additional observations from a re-analysis of the deposited data

How the results depend on the processing

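The 32 log2 ratios of the 8 genes were computed under 14 alternatives, 3 of them chosen after seeing the data. Of 448 values 3 were called ratios that changed sign, 93 others moved beyond their counting interval, some of them through 0, and 352 did not. Of 114 counts 7 were marked as moved and 107 were not. The mark leaves out some changes, since calls gained or lost as described below altered other counts as well.

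Without the NR4A3-led cluster, which holds most of the reference UMIs of intact lumbar cord, the 3 called ratios that changed sign were CCL3 at 7 dpi (1.5), CXCL8 at 14 dpi (0.81) and TNF at 6 mpi (1.80). CCL2 (2.78) and CCL4L1 (3.31) at 7 dpi, below 0 and not called in the main setting, were then called higher, as were CXCL8 at 30 dpi (2.89) and 6 mpi (2.17) and CCL2 at 6 mpi (3.21), while IL1B at 14 dpi (-0.70) lost its call. The reference is then the remaining lumbar nuclei, which for CCL2, CCL4L1 and CXCL8 lay below the cervical and thoracic ones in the cluster led by MRC1. Genes called higher then numbered 3 in place of 1 at 7 dpi and 5 in place of 3 at 6 mpi (7.17% and 11.2% of all genes), and those called lower 0 in place of 2 at 14 dpi and 1 in place of 2 at 6 mpi (4.1% and 4.48%). With the mean of the intact libraries as reference, 1 gene was lower at 14 dpi, since IL1B fell short of 2-fold. With only nuclei over 2000 UMIs, or with each nucleus named alone, 1 gene was lower at 6 mpi, since TNF lost its call. CCL4L1 at 14 dpi lost its call with each nucleus named alone or weighted equally, and CXCL10 at 14 dpi with the top 1% of nuclei left out. With all markers used for naming, CCL3 at 6 mpi went from 3.20 to 1.45 and CXCL8 there from 0.05 to -2.15, which gave CXCL8 and CCL2 (1.37) a call and ended that of TNF (-0.41). That naming left unnamed, and so out of the class, clusters with 1167 of its 2313 nuclei at 6 mpi and 2615 of its 3513 at 7 dpi. CXCL8 at 30 dpi also gained a call at 1.5-fold and with the top 1% of nuclei left out (1.07). Pairs of a gene and an injured library with a share above the intact range numbered 16 when thinned to 1000 UMIs, 18 at 2000 and 19 unthinned. Scaling by size factors shifted log2 ratios by at most 0.16, at 6 mpi. The causes of these moves were not tested.

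No paired analysis was possible because each group is 1 library. Leaving out a replicate was not possible for the same reason. Depth limits CXCL10, with 1 UMI in 2 libraries, and the classes with few nuclei.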

Other observations

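An unnamed cluster of 89 nuclei, 66 of them from 14 dpi, was led by the neurofilament genes NEFH, NEFM and NEFL together with TNF and CCL3. In it CCL3 was 490 CPM, TNF 338 CPM, CCL4L1 222 CPM, and CCL2 and IL1B 108 CPM each. As it carried genes of neurons beside those of microglia-like nuclei and met no naming rule, it entered no comparison.

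A microglia-like cluster of 162 nuclei led by FN1, CFD and PECAM1 drew its nuclei from all 7 libraries. Over all libraries it carried IL1B at 102 CPM, CCL3 at 13.3 CPM and CCL4L1 at 1.66 CPM.

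Receptors of the 8 genes' products were also read in other classes, over all libraries. IL1RAP, the shared subunit of the IL1 receptor, was 242 CPM in OPC-like nuclei, and TNFRSF1B, a TNF receptor, was 202 CPM in microglia-like nuclei. IL33 was 235 CPM in astrocyte-like nuclei.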
